A study of Mus musculus with 16 samples.

Results

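The data described here are the read counts of 10 genes of bone morphogenetic protein (BMP) signalling in the mouse colon, out of 45513 genes counted. They are the ligands Bmp3, Bmp4 and Bmp7, the decoy receptor Bambi, the inhibitory Smads Smad6 and Smad7, and the inhibitors of DNA binding Id1, Id2, Id3 and Id4. The genes were chosen by name and on their counts in the same contrast that is described below, tdTom+ versus tdTom- cells, so their differences between the populations are given as a description, without a test. Both populations came from the colon of 8 mice, giving 16 libraries, 8 in each group, and the mouse number in the labels ties the pair of libraries of a mouse together. All mice carried the same genotype, homozygous Atoh1(WT)CreERT2 with the Rosa26tdTom/+ reporter, were adults of both sexes, 8 to 16 weeks old, on the C57BL/6 background, and received 1 mg of tamoxifen per day on 3 days. No group without tamoxifen or without the Cre allele was part of this comparison. CreERT2 sits downstream of the Atoh1 coding sequence, so Cre is made where Atoh1, the transcription factor of secretory fate, is made, and the tdTom label persists in the progeny of a labelled cell. Live EpCAM+ epithelial cells were sorted on that label, and the study takes tdTom+ cells as secretory and tdTom- cells as absorptive.

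BMP ligands bind a complex of type 1 and type 2 receptors, which phosphorylate Smad1, Smad5 and Smad9; these join Smad4 and enter the nucleus. Id1, Id2 and Id3 are classical targets of that signal, and Id proteins bind the E proteins and so keep basic helix-loop-helix factors, the class to which ATOH1 belongs, from binding DNA. Smad6, Smad7 and Bambi act as feedback inhibitors, and in the colon BMP activity is known to be highest towards the surface of the epithelium and low at the crypt base, where antagonists from the surrounding mesenchyme restrain it.

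RefSeq promoters (build GRCm38.p6, 250 bases before to 50 bases after the annotated start) were used for 5 of the 10 genes. Promoters of Bambi and Smad7 were left out because of their genomic position, whether or not RefSeq holds them. The promoters used were those of Bmp4, Id2, Id3, Id4 and Smad6. Those of the 3 Id genes and of Smad6 are shown because the Id genes differ in direction between the populations and Smad6 carries the rarest of the motifs searched. Capitals mark GGCGCC, a GC-rich Smad-binding element, and GTCTAGAC, the palindromic Smad-binding element.
Id2: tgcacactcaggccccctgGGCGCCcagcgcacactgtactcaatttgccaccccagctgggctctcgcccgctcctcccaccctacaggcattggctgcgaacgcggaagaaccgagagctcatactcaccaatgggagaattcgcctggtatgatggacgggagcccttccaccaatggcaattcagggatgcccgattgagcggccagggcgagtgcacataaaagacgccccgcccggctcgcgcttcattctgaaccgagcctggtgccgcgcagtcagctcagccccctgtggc
Id3: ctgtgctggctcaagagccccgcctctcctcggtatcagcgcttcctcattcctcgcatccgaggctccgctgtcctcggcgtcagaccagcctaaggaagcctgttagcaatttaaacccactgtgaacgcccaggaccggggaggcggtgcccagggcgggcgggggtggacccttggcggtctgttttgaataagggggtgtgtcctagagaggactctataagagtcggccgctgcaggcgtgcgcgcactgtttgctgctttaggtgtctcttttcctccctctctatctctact
Id4: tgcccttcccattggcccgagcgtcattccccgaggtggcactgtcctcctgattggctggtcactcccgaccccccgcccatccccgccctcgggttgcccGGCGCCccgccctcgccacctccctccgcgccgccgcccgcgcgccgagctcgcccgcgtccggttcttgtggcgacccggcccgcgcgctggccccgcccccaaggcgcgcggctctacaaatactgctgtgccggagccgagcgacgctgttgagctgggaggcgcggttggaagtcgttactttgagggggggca
Smad6: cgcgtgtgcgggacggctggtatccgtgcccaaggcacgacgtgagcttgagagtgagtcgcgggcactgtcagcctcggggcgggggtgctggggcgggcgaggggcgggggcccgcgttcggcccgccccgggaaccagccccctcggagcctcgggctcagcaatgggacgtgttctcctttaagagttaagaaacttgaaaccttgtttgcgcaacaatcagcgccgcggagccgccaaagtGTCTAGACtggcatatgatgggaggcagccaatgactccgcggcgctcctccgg
These windows lie at chr12:25096043-25096342 on the minus strand, chr4:136143572-136143871 on the plus strand, chr13:48260866-48261165 on the plus strand and chr9:64022010-64022309 on the minus strand. Both strands were searched for GGCGCC, GTCTAGAC, the shorter Smad site GTCT that lies within it, and the E-box CANNTG with its form CAGCTG. Each CAGCTG is also a CANNTG match. The element GGCGCC was present once in Id2, at position −231 from the start (the annotated start being 0), and once in Id4, at −148, and 11.9% of 32851 RefSeq promoters held it. GTCTAGAC was present only in Smad6 among the 5, at −4 and so across the start, and 0.213% of all promoters held it. The other inhibitory Smad, Smad7, was not among the promoters searched, so whether it holds this element is not known here. An E-box was present in 72.3% of all promoters and in Id2 (at −196, of the form CAGCTG, which 16.3% of promoters held), Smad6 (at 7) and Bmp4 (3 matches). The shorter site GTCT was present in 88.0% of all promoters. It had 3 matches in Id3, 2 in Bmp4, 2 in Smad6, 1 in Id2 and 0 in Id4. The matches in Smad6 lay within its GTCTAGAC. None of the other motifs named here occurred in the window of Id3, and no E-box in that of Id4. For Id3 and Id4 the RefSeq start differs from the gene start in the count files, which is 136143497 for Id3 (RefSeq 136143822) and 48261427 for Id4 (RefSeq 48261116).

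Total counts ran from 16482530 to 24218367 in tdTom+ libraries and from 18318172 to 45791503 in tdTom- libraries, where mouse 4 gave the deepest. Levels are CPM (counts per 1e6 on TMM-scaled library sizes), and a log2 fold change is the value fitted by edgeR for tdTom+ over tdTom-. Of 10 goblet cell markers, all 10 passed edgeR's quasi-likelihood test as higher in tdTom+ cells, with a summed level of 52120 to 107798 CPM versus 2497 to 9032 CPM. Of 10 markers of absorptive cells 9 were lower in tdTom+ cells and 1, Guca2b, was higher, and their sum was 733 to 1069 CPM versus 7784 to 15696 CPM. Enteroendocrine markers (8 of 10 lower, 0 higher, sum 289 to 772 versus 1376 to 4034 CPM) and tuft cell markers (7 of 10 lower, 0 higher, sum 57.6 to 116 versus 109 to 182 CPM) were also lower in tdTom+ cells, so the tdTom- libraries held these markers beside those of absorptive cells. Of 10 stem cell markers 2 were higher and 6 lower, at a sum of 567 to 652 versus 513 to 739 CPM, and of 10 proliferation genes 6 were lower and 0 higher, at 649 to 1031 versus 802 to 1439 CPM. The 10 general epithelial markers had 1 higher (Krt18) and 8 lower, at 6516 to 7384 versus 10645 to 12623 CPM. Markers of mesenchymal and endothelial cells, in which BMP ligands and Id genes are also made, were mostly near 0. The fibroblast list had 9 of 10 genes under a mean of 1 CPM and Lum and Dpt at 0, with a sum of 5.47 to 9.16 versus 8.34 to 15.2 CPM. The endothelial list had 7 of 10 under 1 CPM and Cdh5 at 1 count in all libraries together, with a sum of 9.70 to 14.0 versus 8.56 to 11.9 CPM. The muscle list (8 of 10 under 1 CPM, Lmod1 at 0, 18.9 to 31.6 versus 49.1 to 66.5 CPM), the glial list (9 of 10 under 1 CPM, Cdh19 and Scn7a at 0, 206 to 253 versus 344 to 499 CPM, nearly all from the epithelial receptor Erbb3) and the immune list (7 of 10 under 1 CPM, 7.36 to 11.4 versus 11.2 to 20.3 CPM) were low as well. The part of these cell types in the differences below was not tested, and in sorted bulk samples fewer cells of a type and less RNA per cell cannot be told apart.

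Of the 10 genes 9 passed the filter on low counts and Bmp4 did not. Id4 met the filter through its tdTom+ libraries, its tdTom- libraries being at 0.212 to 0.765 CPM. By the fitted log2 fold change 3 of the 9 were higher in tdTom+ cells (Bmp7, Bambi and Id4) and 6 were lower (Bmp3, Id1, Id2, Id3, Smad6 and Smad7). Over all 15841 genes tested 51.0% passed an adjusted p under 0.01 in edgeR's quasi-likelihood test, 25.5% as higher and 25.5% as lower. Since the 10 genes were chosen from this contrast, no call is given for them and nothing is read from their count. The ranges of the 8 libraries per group did not overlap for the 3 higher genes (15.2% of all genes tested) and for 5 of the 6 lower genes (15.3% of all genes tested), Id2 being the exception. In each of the 9 genes the direction was the same in 8 of 8 mice, which their choice from this contrast favours. The share over all genes was not computed, so nothing is read from this either. The median size of the log2 fold change over all genes tested was 0.33.

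**Figure D1:**
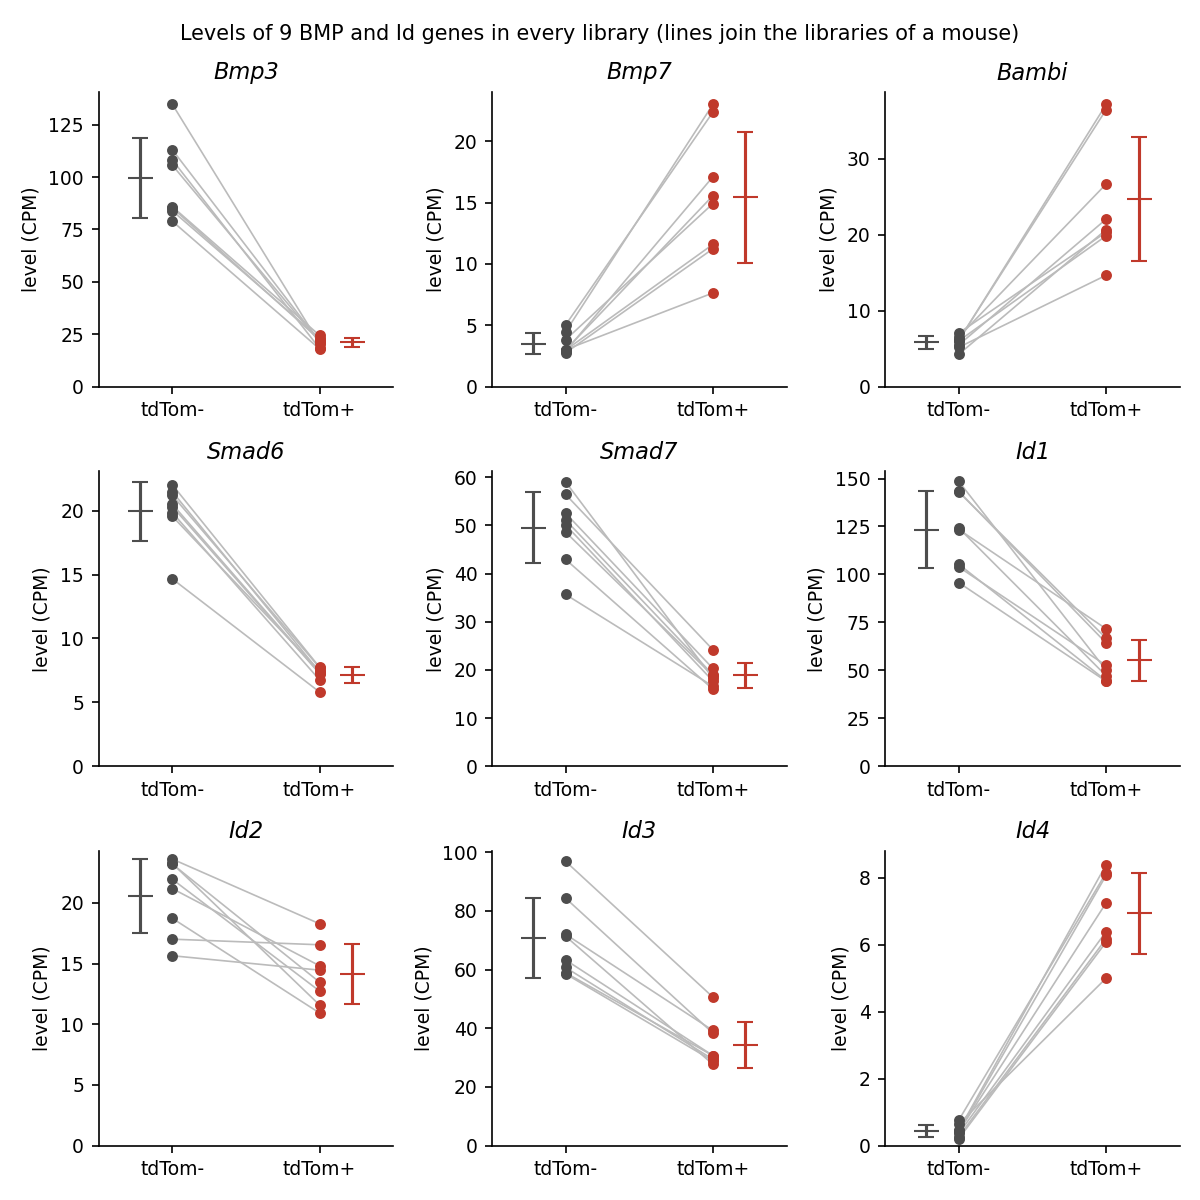
Level in CPM (vertical axis from 0) of 9 genes in the 8 tdTom- (grey) and 8 tdTom+ (red) libraries; grey lines join the libraries of a mouse and bars give mean ± SD. All lines of Bmp7, Bambi and Id4 go up towards tdTom+, all others go down, and only for Id2 do the ranges of the groups overlap.

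The ligands differed in direction. Bmp3 (ENSMUSG00000029335, chromosome 5, 98854415 to 98884396, GRCm38), an atypical BMP that is known to oppose the signal of other BMPs, was at 17.99 CPM in the lowest tdTom+ library, 21.4 at the median and 24.5 in the highest, versus 78.9, 95.8 and 135 CPM in tdTom- cells. Every tdTom- library was above every tdTom+ library, with means of 99.5 ± 19.2 and 21.2 ± 2.24 CPM (SD, n = 8 each). Its log2 fold change was −2.23 (standard error 0.10), or 4.69-fold lower in tdTom+ cells. Within the series of mouse numbers in the labels, the mean difference was −2.55 in mice 1 to 3, −1.93 in mouse 4 and −2.02 in mice 5 to 8. The 3 largest differences were those of mice 1 to 3, whose tdTom- libraries were the 3 highest.

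Bmp7 (ENSMUSG00000008999, chromosome 2, 172868012 to 172940321), a ligand that signals through Smad1, Smad5 and Smad9, went the other way. Its tdTom+ libraries ran from 7.64 CPM over a median of 15.2 to 23.0 CPM, and its tdTom- libraries from 2.75 over 3.00 to 5.02 CPM. The groups did not overlap, and they came nearest between the tdTom+ library of mouse 3 and the tdTom- library of mouse 1. The log2 fold change was 2.13 (standard error 0.20), 4.38-fold higher, and the mean differences were 1.93, 2.34 and 2.096 in mice 1 to 3, mouse 4 and mice 5 to 8. Bmp7 was also the most variable of the 9 genes among tdTom+ libraries, with an SD of 0.53 on the log2 scale, while genes of similar level (within 0.5 log2) had a median SD of 0.18. Bmp7 per length was 3.84 RPKM (reads per kilobase of the gene's exons at the CPM scale) in tdTom+ and 0.869 RPKM in tdTom- cells, and Bmp3 was 2.86 and 13.4 RPKM. The ratio of Bmp7 over Bmp3 in RPKM therefore ran from 0.770 to 1.92 in tdTom+ and from 0.0408 to 0.0964 in tdTom- libraries, without overlap.

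Bmp4 (ENSMUSG00000021835, chromosome 14, 46383520 to 46390669), the main BMP of the intestinal mesenchyme, gave 10 counts in the 16 libraries together, 4 in tdTom+ and 6 in tdTom- cells. In each group 4 of 8 libraries had 0 counts, and no library exceeded 3, so no difference could be detected at this depth and no fold change is given. The genes that overlap it on the opposite strand had 0 counts.

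Of 25 other ligands of the BMP and TGF-beta families, 19 were too low to be tested and 6 of these had 0 counts. Among the 6 tested, 2 were higher in tdTom+ cells and 3 lower, with a median log2 fold change of −0.96, versus 0.0039 over all genes. The share that passed was 83.3%, versus 51.0% over all genes, and with so few genes nothing is read from it. Bmp2, a BMP known from the surface of the colonic epithelium, was at 18.2 ± 2.95 versus 44.1 ± 10.1 CPM (SD, n = 8), a log2 fold change of −1.28 (standard error 0.14, adjusted p = 7.65e-08, from the quasi-likelihood test of edgeR, Benjamini-Hochberg over all genes, as for every adjusted p on a gene below). Bmp8b fell from 3.69 to 0.658 CPM (−2.46, adjusted p = 4.71e-09) and the stress-induced family member Gdf15 from 20.5 to 9.22 CPM (−1.15, adjusted p = 2.85e-07). Tgfb1, which encodes a TGF-beta ligand, rose from 4.59 to 11.2 CPM (1.27, adjusted p = 2.54e-08), and Bmp8a from 3.54 to 6.79 CPM (0.95, adjusted p = 2.40e-05). Bmp8a and Bmp8b are close paralogs that may share reads, and Oxct2b, with 51 counts in all, overlaps Bmp8b on its own strand, so their values are less certain. Bmp2 had the same direction as Bmp3 in 8 of 8 mice. On the scale of length, Bmp2 stood at 5.12 RPKM in tdTom+ and 12.4 RPKM in tdTom- cells, close to Bmp3 in the latter.

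**Figure D2:**
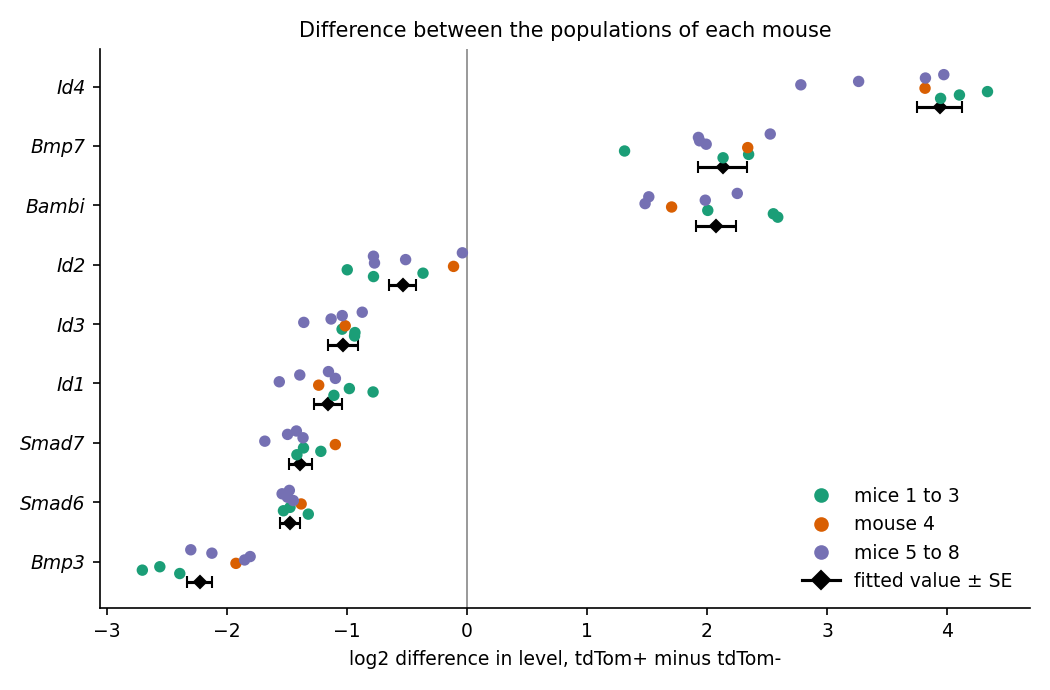
Difference of log2 CPM between the tdTom+ and the tdTom- library of each mouse (horizontal axis) for 9 genes, coloured by series of mouse numbers; black diamonds give the fitted log2 fold change ± SE. Id4, Bmp7 and Bambi are right of 0 in every mouse and the other 6 genes left of 0, with Id2 of mouse 8 closest to 0 at −0.039.

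Bambi (ENSMUSG00000024232, chromosome 18, 3507957 to 3516404), a membrane protein that resembles a type 1 receptor but lacks its kinase, was at 14.7, 21.4 and 37.1 CPM in the lowest, median and highest tdTom+ library. In tdTom- cells these values were 4.26, 6.06 and 7.05 CPM, so that the lowest tdTom+ library was still above all tdTom- libraries. The log2 fold change was 2.08 (standard error 0.17), or 4.22-fold. The per-mouse differences ran from 1.48 in mouse 5 to 2.59 in mouse 1, with means of 2.38 in mice 1 to 3, 1.70 in mouse 4 and 1.81 in mice 5 to 8. The tdTom+ libraries of mice 1 and 2 were the highest, at 37.1 and 36.4 CPM, and the SD of 0.46 (log2) among tdTom+ libraries compared with 0.16 for genes of similar level.

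The receptors that Bambi resembles did not share one direction. Of 16 receptors and co-receptors 13 were tested, 6 were higher in tdTom+ cells, 2 were lower and 5 did not pass. Those that passed were 61.5% of the tested ones, near the 51.0% over all genes. Bmpr1a, the type 1 BMP receptor of the intestinal epithelium, had 95.9 ± 9.88 CPM versus 95.3 ± 6.91 CPM (tdTom+ versus tdTom-, SD, n = 8) and a log2 fold change of 0.0080 (standard error 0.065, adjusted p = 0.923, edgeR). Bmpr2, the type 2 receptor, was at 41.6 and 41.1 CPM (0.017, standard error 0.090, adjusted p = 0.884, edgeR). Acvr2a and Acvr2b did not pass either (−0.092 and 0.061, adjusted p = 0.340 and 0.755, edgeR), and Bmpr1b had 42 counts in all and was not tested. Acvr1, another type 1 receptor for BMPs, rose from 16.6 ± 0.840 to 29.3 ± 2.13 CPM (0.83, adjusted p = 8.69e-11, edgeR), in 8 of 8 mice. Rgma, a glycosylphosphatidylinositol-anchored co-receptor for BMPs, rose from 3.92 to 8.39 CPM (1.09, adjusted p = 2.60e-07, edgeR), and Amhr2, the type 2 receptor for anti-Müllerian hormone, from 0.309 to 2.47 CPM on 434 counts in all (2.97, adjusted p = 3.19e-07, edgeR). With so low a level in tdTom- cells, Amhr2 met the filter on low counts largely through its tdTom+ libraries. Acvrl1, a type 1 receptor known from endothelium, fell from 8.32 to 2.92 CPM (−1.50, adjusted p = 9.53e-09, edgeR). The second receptor that was lower, Acvr1b, binds activins (−0.53, adjusted p = 1.56e-08, edgeR). The median over the 13 tested receptors was 0.25.

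The inhibitory Smads were both lower in tdTom+ cells. Smad6 (ENSMUSG00000036867, chromosome 9, 63953076 to 64022059), which blocks BMP signalling in particular, was at 5.80, 7.33 and 7.74 CPM in the lowest, median and highest tdTom+ library and at 14.7, 20.4 and 22.04 CPM in tdTom- cells. The groups did not overlap. Its log2 fold change was −1.47 (standard error 0.084, 2.78-fold lower), and the per-mouse differences were the most even of the 9 genes, from −1.54 to −1.32 with an SD of 0.074. Mean differences were −1.44, −1.38 and −1.49 in mice 1 to 3, mouse 4 and mice 5 to 8. The lowest level of Smad6 in both populations was that of mouse 1.

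Smad7 (ENSMUSG00000025880, chromosome 18, 75367529 to 75395935), which blocks TGF-beta as well as BMP receptors, had 16.001, 18.6 and 24.2 CPM as lowest, median and highest tdTom+ level, and 35.7, 50.6 and 59.0 CPM in the tdTom- libraries. Again every tdTom- library was above every tdTom+ library. The log2 fold change was −1.39 (standard error 0.098, 2.62-fold lower), with means of −1.33 in mice 1 to 3, −1.10 in mouse 4 and −1.49 in mice 5 to 8. Per length, Smad7 exceeded Smad6 in both populations and by about as much, with a ratio of 1.87 ± 0.219 in tdTom+ and 1.77 ± 0.234 in tdTom- cells (SD, n = 8 libraries, RPKM over RPKM), and the ranges of this ratio overlapped.

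Of the Smads that carry the signal, all 6 were tested, 1 was higher in tdTom+ cells and 4 were lower, and their median was −0.41. Of these Smads 83.3% passed, versus 51.0% of all genes. Smad5 rose from 55.8 to 77.3 CPM (0.47, adjusted p = 4.05e-07, edgeR) and Smad9 fell from 1.70 to 0.553 CPM on 388 counts in all (−1.60, adjusted p = 3.23e-06, edgeR). Smad1, at 59.0 versus 52.8 CPM, had a log2 fold change of 0.16 that missed the threshold (adjusted p = 0.0102, edgeR), which it met in the fit blocked by mouse (0.16, edgeR adjusted p = 0.0057). The common partner Smad4 fell from 113 to 80.4 CPM (−0.50, adjusted p = 4.40e-06, edgeR). Smad2 and Smad3, which act downstream of TGF-beta and activins, fell by 0.65 and 0.32 on the log2 scale (adjusted p = 3.02e-08 and 1.19e-05, edgeR).

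The 4 Id genes fell into opposite directions. Id1 (ENSMUSG00000042745, chromosome 2, 152736251 to 152737410) was at 44.3, 51.3 and 71.6 CPM in the lowest, median and highest tdTom+ library and at 95.7, 124 and 148 CPM in tdTom- cells, without overlap. Its log2 fold change was −1.16 (standard error 0.12, 2.23-fold lower), and the means over mice 1 to 3, mouse 4 and mice 5 to 8 were −0.96, −1.24 and −1.30. The difference was smallest in mouse 2 (−0.78), whose tdTom+ library had the highest Id1 level, and largest in mouse 5 (−1.57), whose tdTom- library had the highest.

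Id3 (ENSMUSG00000007872, chromosome 4, 136143497 to 136145755) was close to Id1 in the size of its difference. Its lowest, median and highest levels were 27.7, 30.7 and 50.7 CPM in tdTom+ libraries, and 58.6, 67.4 and 96.9 CPM in tdTom- libraries, again without overlap, and mouse 2 was the highest in both. The log2 fold change was −1.04 (standard error 0.13, 2.05-fold lower), and the means of the 3 series of mice were −0.97, −1.02 and −1.10. The ratio of Id1 over Id3 in RPKM was 2.49 ± 0.235 in tdTom+ and 2.73 ± 0.395 in tdTom- cells (SD, n = 8), with overlapping ranges.

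Id2 (ENSMUSG00000020644, chromosome 12, 25093801 to 25096092) had the smallest difference. Its tdTom+ libraries lay at 10.9, 14.0 and 18.3 CPM and its tdTom- libraries at 15.6, 21.6 and 23.6 CPM. Here the groups overlapped, since the tdTom+ libraries of mice 2 and 8 (18.3 and 16.6 CPM) were above the tdTom- library of mouse 4 (15.6 CPM). The log2 fold change was −0.54 (standard error 0.11, 1.45-fold lower). Per mouse it ran from −0.9992 in mouse 3 to −0.11 in mouse 4 and −0.039 in mouse 8, and the means of the series were −0.72, −0.11 and −0.53.

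Id4 (ENSMUSG00000021379, chromosome 13, 48261427 to 48264036) was the Id gene that was higher in tdTom+ cells. It was at 5.004, 6.82 and 8.39 CPM in the lowest, median and highest tdTom+ library and at 0.212, 0.427 and 0.765 CPM in tdTom- cells. The lowest tdTom+ library was thus far above the highest tdTom- library. This rested on 1077 counts in tdTom+ and 84 counts in tdTom- libraries, and none of the 16 was at 0. The log2 fold change was 3.94 (standard error 0.19), 15.4-fold, the largest of the 9 genes in size. Per-mouse differences ran from 2.78 in mouse 5 to 4.34 in mouse 3, with means of 4.13 in mice 1 to 3, 3.82 in mouse 4 and 3.46 in mice 5 to 8. A gene on the opposite strand, A330033J07Rik, overlaps Id4 and had 7 counts in all, and the counting used strand.

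**Figure D3:**
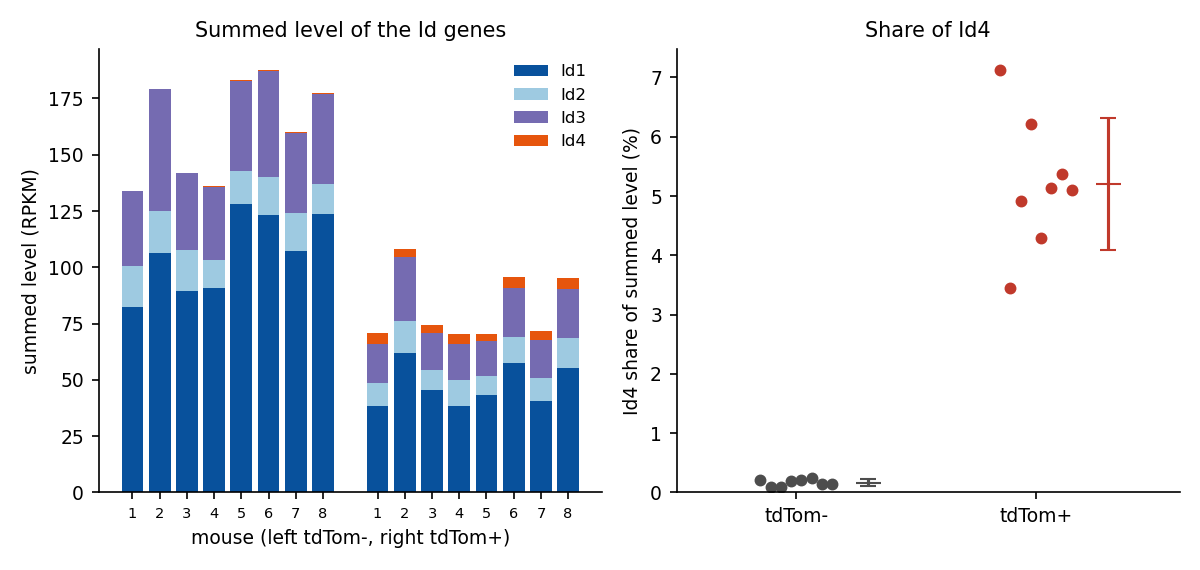
Left, stacked level of the 4 Id genes in RPKM (from 0) in each library, mice 1 to 8 of tdTom- and then of tdTom+; right, share of Id4 in that sum in percent, with mean ± SD at the side. The stacks are lower in tdTom+ cells while the share of Id4 lies between 3.44% and 7.12% there and at most at 0.246% in tdTom- cells.

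Summed over the 4 genes in RPKM, Id level was 82.1 ± 15.1 in tdTom+ and 162 ± 22.3 in tdTom- cells (SD, n = 8). The lowest tdTom- library, at 134 RPKM, was above the highest tdTom+ library, at 108 RPKM. Id1 made up most of the sum in both, 57.9% ± 2.82 in tdTom+ and 65.4% ± 3.76 in tdTom- cells. Id3 followed with 23.3% and 24.3% and Id2 with 13.6% and 10.2%. Id4 contributed 5.20% ± 1.12 in tdTom+ and 0.165% ± 0.0577 in tdTom- cells. Most of the sum thus came from Id1 and Id3 in both populations.

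Ordered by mean level per length in RPKM, the genes in tdTom+ cells were Id1 (47.6), Id3 (19.3), Id2 (11.1), Bambi (4.90), Id4 (4.18), Smad7 (4.17), Bmp7 (3.84), Bmp3 (2.86), Smad6 (2.24) and Bmp4 (0.0122). Neighbours from Bambi to Bmp3 overlapped in their ranges over libraries, so their order is not resolved, whereas Id1, Id3 and Id2 were each above the next gene in all 8 libraries. In tdTom- cells the order was Id1 (106), Id3 (39.5), Id2 (16.2), Bmp3 (13.4), Smad7 (10.96), Smad6 (6.23), Bambi (1.16), Bmp7 (0.869), Id4 (0.269) and Bmp4 (0.0148). There the ranges of Id2 and Bmp3, of Bmp3 and Smad7, and of Bambi and Bmp7 overlapped.

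Id proteins act on the E proteins. Tcf3 fell by 0.26 on the log2 scale (62.0 to 52.0 CPM, adjusted p = 0.0063, edgeR), a call that was lost under total-count scaling, without the filter, without mouse 1, 3, 5, 6, 7 or 8, and in mice 1 to 3 or 5 to 8 alone. Tcf4 missed the threshold (−0.23, adjusted p = 0.0134, edgeR) but met it in the blocked fit (−0.23, edgeR adjusted p = 0.0090), and Tcf12 did not pass (0.14, adjusted p = 0.0678, edgeR).

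**Figure D4:**
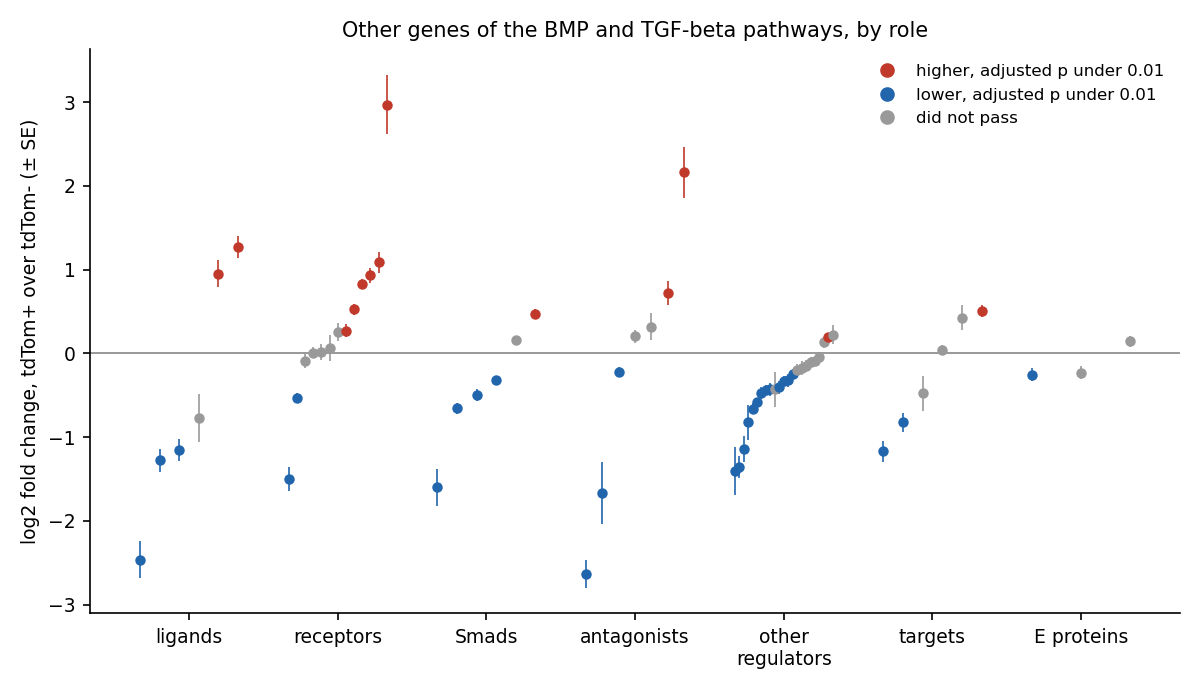
Log2 fold change of tdTom+ over tdTom- (± SE) of the 64 other pathway genes tested, by role, each point a gene; red and blue mark genes past an adjusted p of 0.01. Receptors are mostly at or above 0, the other regulators mostly at or below it.

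Secreted antagonists and other regulators completed the list. Of 19 antagonists 12 could not be tested. Among the 7 tested, 2 were higher (Fstl1 and Dand5) and 3 lower (Nbl1, Chrd and Crim1), so 71.4% passed, versus 51.0% of all genes. Nbl1, a secreted BMP antagonist of the DAN family, fell from 17.7 ± 3.90 to 2.84 ± 0.610 CPM (−2.63, adjusted p = 1.69e-11, edgeR), and Chrd, the BMP-binding protein chordin, fell from 1.39 to 0.433 CPM on 311 counts (−1.67, adjusted p = 5.59e-04, edgeR), in 7 of 8 mice. Fstl1, a follistatin-like protein, rose from 0.746 to 3.33 CPM (2.16, adjusted p = 2.84e-06, edgeR). Nog, which encodes the BMP antagonist noggin, had 0 counts in all 8 tdTom+ libraries, each of which allows up to 3 counts, and 98 counts over the 8 tdTom- libraries, at 0.0972 to 1.31 CPM. It did not pass the filter and was not tested.

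Of 26 other regulators 23 were tested, 1 was higher (Fkbp1a), 13 were lower and 9 did not pass. The share that passed, 60.9%, was near the 51.0% over all genes. Hipk2, a kinase that acts with Smad corepressors, fell from 43.6 to 19.8 CPM (−1.14, adjusted p = 2.10e-06, edgeR), Bmp1, the protease that cleaves chordin, from 8.06 to 3.12 CPM (−1.36, adjusted p = 1.29e-08, edgeR) and Ltbp3, a latent TGF-beta binding protein, from 0.932 to 0.348 CPM on 217 counts (−1.40, adjusted p = 2.35e-04, edgeR). Of 16 further target genes of BMP signalling 6 were tested. Tbx3, a T-box repressor, fell from 18.3 to 8.08 CPM (−1.17, adjusted p = 5.88e-08, edgeR) and the cell cycle inhibitor Cdkn1a from 210 to 119 CPM (−0.82, adjusted p = 2.27e-06, edgeR), whereas Runx1 rose from 18.8 to 26.8 CPM (0.51, adjusted p = 1.60e-06, edgeR) and 3 did not pass. Over all 111 listed genes 47 were not tested, 10 of them with 0 counts. Of the 64 tested, 13 were higher and 28 lower in tdTom+ cells, the median being −0.21 versus 0.0039 over all genes; 64.1% passed, while 51.0% of all genes did.

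Levels of the 9 genes were also compared between mice, which the choice of genes did not use. For each gene log2 CPM in tdTom- cells was set against that in tdTom+ cells of the same 8 mice, giving 9 relations. Smad6 had a Pearson r of 0.94 (exact permutation p = 0.0058, adjusted p = 0.0456 over 9 relations) and a Spearman rho of 0.71 (exact permutation p = 0.0576, adjusted p = 0.208). Without the 2 mice farthest from the median r was 0.50, and without mouse 1 alone it was 0.65, so the relation rests on mouse 1. Id3 had an r of 0.86 (exact permutation p = 0.0101, adjusted p = 0.0456) and a rho of 0.71 (exact permutation p = 0.0576, adjusted p = 0.208), and without the 2 farthest mice r was 0.44, so this relation rests on those mice too. None of the other 7 passed an adjusted p of 0.05, with r from −0.19 for Bmp3 to 0.72 for Bmp7. The series of mouse numbers hold 3, 1 and 4 mice, too few for a relation within one.

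**Figure D5:**
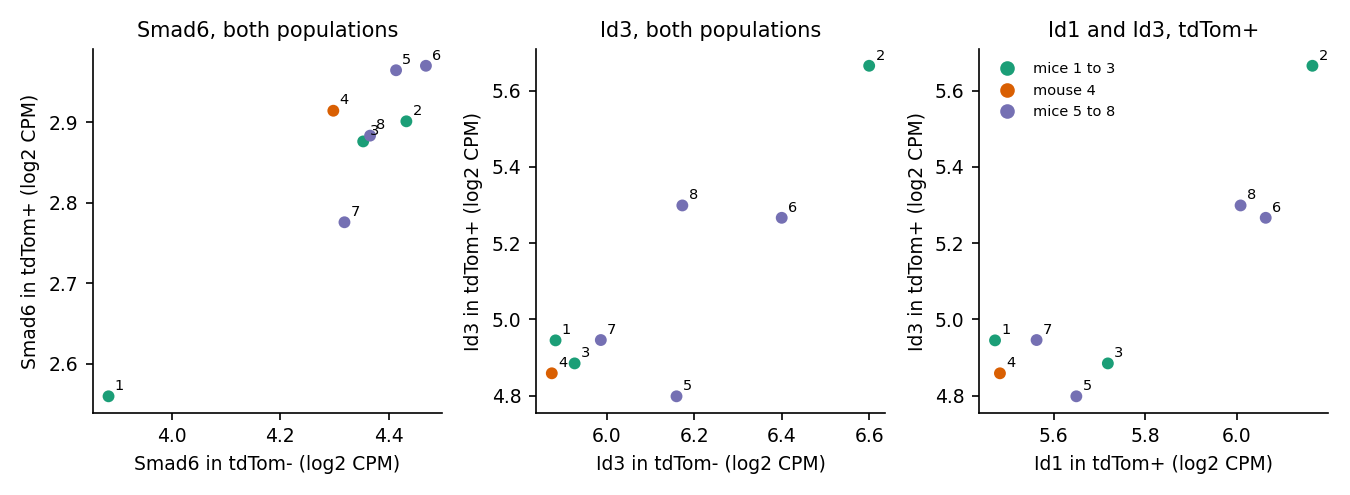
Log2 CPM of Smad6 and of Id3 in tdTom- (horizontal) and tdTom+ cells (vertical), and of Id1 and Id3 within tdTom+ cells, each point a mouse with its number and coloured by series. Mouse 1 stands alone at the low end for Smad6, and mouse 2 at the high end in both other plots.

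Within a population, the 6 pairs of Id genes gave 12 relations over 8 mice. In tdTom+ cells Id2 and Id3 had an r of 0.88 (exact permutation p = 0.0017, adjusted p = 0.0202 over 12 relations) and a rho of 0.83 (exact permutation p = 0.0154, adjusted p = 0.185), and without the 2 farthest mice r was 0.75 (exact permutation p = 0.0958). Id1 and Id3 had an r of 0.89 (exact permutation p = 0.0045, adjusted p = 0.0272) and a rho of 0.67 (exact permutation p = 0.0831, adjusted p = 0.417), and without the 2 farthest mice r was 0.77 (exact permutation p = 0.124). In tdTom- cells none of the 6 pairs passed, and Id1 and Id3 had an r of 0.61 (exact permutation p = 0.112, adjusted p = 0.335). A difference between the populations in these relations was not tested. Mice 2, 6 and 8 held the 3 highest tdTom+ levels of Id1, Id2 and Id3 alike, so both relations rest largely on these mice. The tdTom+ libraries of the same 3 mice also had the highest summed level of the 10 absorptive markers, at 945, 1069 and 1019 CPM versus 733 to 882 CPM in the other 5. Mouse 2 had in addition the highest sum of 10 immediate early genes, which respond to tissue dissociation, at 5444 CPM (tdTom+) and 6125 CPM (tdTom-), with 2057 to 3693 and 2281 to 5126 CPM in the other mice. The part of either in these relations was not tested.

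As a description over the 16 libraries, the deviations of each gene from its population mean were compared on the log2 CPM scale; these points share library, depth and mouse. Id1 was most like Capg (r = 0.86), Klf4 (0.86) and Ticam2 (0.85), Id2 most like Ms4a5 (0.85), Pcyt1b (0.82) and Camk2n1 (0.78), Id3 most like Arg1 (0.83), Gm10040 (0.81) and Gm14925 (0.81), and Id4 most like Hoxa11 (0.80), Zfp9 (0.79) and Irak3 (0.78). Among the 9 genes, Id1 had its highest r with Smad7 (0.80) and Id3 (0.77), and Id3 had 0.76 with Smad7. Id4 had 0.38 with Bmp7 and at most 0.35 with another Id gene, and 0.013 with Smad7.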

How the data were processed

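Colonic EpCAM+ cells of 8 mice, sorted into tdTom+ and tdTom- and sequenced as RNA, were analysed, and groups and mouse numbers were taken from the labels. The authors aligned single-end reads (stranded mRNA kit) to GRCm38.p3 with TopHat2 2.1.1 and deposited whole-number counts per gene, made on exons with featureCounts (1.5.0-p1 in the file headers, Subread 1.5.2 in the submitters' processing notes) from primary alignments on the reverse strand, without normalization. Tamoxifen is given as 1 mg per day on 3 days in the labels and in the paper's methods on this comparison, while its methods on sequencing give another dose.

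From these counts edgeR 4.0.16 in R 4.3.3 was run on all genes: filterByExpr, TMM, glmQLFit and glmQLFTest without a mouse term, at a Benjamini-Hochberg adjusted p of 0.01. A standard error is the size of the log2 fold change over the square root of F. For log2 CPM a prior count of 2 was used, and RPKM used the deposited gene lengths. Relations between mice were tested by exact two-sided permutation over all pairings, at an adjusted p of 0.05; Bmp4 had too few counts for one, which leaves 9 relations instead of 10. Libraries of a mouse come from the same animal and deviated together (correlations across genes of 0.22 to 0.41 within a mouse, at most 0.17 between mice), so the mouse was a block in one alternative. The others were DESeq2 1.42.0, RLE, upper-quartile and total-count scaling, no filter, at least 10 counts in every library, an adjusted p of 0.05, each mouse left out, and mice 1 to 3 or 5 to 8 only; for relations, a prior count of 0.5.

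Depth was 16482530 to 45791503 counts per library, and a count of 0 allows up to 3 counts, which covers counting error only. No libraries of a group agreed within sampling noise. The fits were tested on simulated counts.

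The 10 genes and all gene lists were chosen with earlier results of these data known. Named from the lists are genes past the threshold with a log2 fold change over 1 in size, all Smads, BMP receptors and E proteins, and for each Id gene the 3 most similar genes; Bmp8a, Acvr1b, Dand5, Crim1, Fkbp1a, Cdkn1a, Runx1, Nog and Guca2b were picked after their values were seen. Symbols came from GENCODE M21 (44585 genes), promoters from RefSeq. Python (3.11.15) with scipy (1.17.1), pandas (2.3.3) and numpy (2.4.6) was used.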

Additional observations from a re-analysis of the deposited data

Results flagged for a closer look

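Of 76 groups of 8 values examined, 7 had an extreme library that stood apart from the other 7 by Dixon's test, and chance gives about 3.8. Smad6 was lowest in mouse 1 in both populations, at 2.56 log2 CPM in tdTom+ cells (the other 7 mice 2.78 to 2.97) and at 3.88 in tdTom- cells (4.30 to 4.47). The other flags were all in mouse 4. Acvr1 was at 3.89 log2 CPM in its tdTom- library (the others 4.03 to 4.14) and Hipk2 at 5.77 (5.30 to 5.49). Nbl1 was at 0.82 log2 CPM in its tdTom+ library (1.43 to 1.97) and at 3.25 in its tdTom- library (3.89 to 4.41). The tdTom- library of mouse 4 had 45791503 counts in all, with 18318172 to 20668605 in the others. Without mouse 4 the 28 pathway genes kept their call.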

How the results depend on the processing

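The log2 fold changes of the 9 genes held their sign under every alternative run, which their choice from this contrast favours, and Id4 had no value where 10 counts were asked of every library. The ranges were 3.64 to 4.42 for Id4, 2.05 to 2.20 for Bmp7, 1.82 to 2.42 for Bambi, −0.69 to −0.48 for Id2 and −2.56 to −2.02 for Bmp3. With mice 1 to 3 only, 2546 genes were higher and 2559 lower. With the mouse as a block 4494 and 4574 passed, and of the listed pathway genes 17 and 32. Leaving out each mouse in turn gave 3670 to 4177 higher and 3700 to 3914 lower genes, and 12 to 15 higher and 26 to 29 lower pathway genes. Relations between mice were less stable. Without scaling of the total counts 1 relation between Id genes passed in place of 2, and leaving out each mouse gave 0 to 2, with 0 without mouse 2, 5, 6 or 8. For levels in both populations leaving out each mouse gave 0 to 3 relations, and none passed without mouse 1, 2, 3, 6, 7 or 8. The cause was not tested. Of 471 values for 28 pathway genes 451 kept their call, 13 lost it and 7 gained it. Ltbp3, Smad3 and Tcf3 lost it, Tcf3 most often, and Smad1 and Tcf4 gained it. Beside Smad1 and Tcf4 the block changed no call of a named gene. Depth limits Bmp4, Nog and most ligands, which could not be tested. Amhr2, Bmp8b, Smad9, Chrd and Ltbp3 were tested, but had no value where 10 counts were asked of every library.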
